A study of Drosophila melanogaster with 2 samples.

Results

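Weak but replicated promoter regions made up 2212 of the 30000 regions in the pooled HmgZ list, and they lay in 2138 separate intervals once overlapping regions were merged. A region was taken as a member if it shared no base with the 6844 peaks that passed the irreproducible discovery rate threshold (IDR, a measure of agreement between replicates), if a summit lay within 100 bp of its own summit in the separate list of each replicate, and if an annotated transcription start site (TSS) lay within 250 bp. The summit is the base of highest signal given for each region. The pooled signal (through the thresholded list), the replicate signals and the distance to the TSS therefore chose the members, and they are given below as descriptions only. Of the 21464 pooled regions that shared no base with a thresholded peak, 39.3% had a summit in both replicates, and of the 4459 among them at promoters 49.6% did.

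The chromatin came from whole fly embryos of mixed sex collected over 4 to 24 h, from a line that stably carries HmgZ with GFP on its C-terminal end. It was sheared by sonication to 200 to 800 bp before immunoprecipitation and sequencing (ChIP-seq). There was 1 group of 2 biological replicates, numbered 1 and 3, and both carried the tagged protein. No ChIP of untagged embryos was analysed here, and the sequence that drives the fusion is not given in the sources used here. The free-text label names the samples as input control, but their antibody field, assay name and region lists are those of an HmgZ ChIP. The lists hold no read counts, so depth is unknown. They are labelled as peaks and background. A low signal from whole embryos can come from few cells with much HmgZ, from many cells with little, or from background. These cannot be told apart.

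HmgZ carries a high mobility group (HMG) box, a protein fold that binds the minor groove of DNA with little sequence preference and bends it. Fly promoters are often described in 2 classes. Those of broadly active genes tend to carry the DNA replication-related element (DRE), the M1BP site and the Ohler motifs 6 and 7, often near sites of the boundary protein BEAF-32, and often stand back to back with the promoter of a neighbouring gene. Those of genes used in particular tissues or stages more often carry a TATA box or an initiator (Inr) at the start site, or GAGA repeats that bind GAGA factor.

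To show what such regions look like, the summit base and 50 bp on each side of it are printed here for 10 members, 2 for each of 3 letter groups and 1 for each of the other 4. They are on dm6, read on the strand of the gene, with the motif in capitals, and none of them overlaps an annotated gene, exon or UTR. Sequence was taken from the RefSeq copy of the assembly. Dbp73D (a DEAD-box RNA helicase; chr3L:16730819-16730919, minus strand) and mh (a DNA-protein crosslink protease needed for the paternal genome; chrX:15475435-15475535, minus strand) hold the DRE core TATCGATA. The windows of muc (a subunit of pyruvate dehydrogenase; chr2L:7426580-7426680, plus strand) and Nse1 (of the Smc5/6 DNA repair complex; chr2L:6677636-6677736, minus strand) hold the M1BP core, here as AGTGTGACC. The windows of vvl (a POU-domain transcription factor of the tracheal and nervous systems; chr3L:6790019-6790119, plus strand) and Rab3-GAP (which activates the GTPase of Rab3; chr2L:12063226-12063326, minus strand) hold the BEAF-32 consensus, CGATAC on either strand. Ohler motif 6 is shown at Ube4A (a ubiquitin ligase; chr2L:6658409-6658509, plus strand), Ohler motif 7 at loco (a regulator of G protein signalling; chr3R:22639537-22639637, minus strand), GAGA letters at Dr (a homeobox regulator of dorsoventral and muscle identity; chr3R:29556227-29556327, plus strand) and TATA letters at CG17593 (chr2L:3514716-3514816, plus strand), whose summit lies between that gene and LeuRS.
Dbp73D: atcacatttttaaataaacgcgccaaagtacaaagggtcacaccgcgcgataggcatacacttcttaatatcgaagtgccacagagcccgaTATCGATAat
mh: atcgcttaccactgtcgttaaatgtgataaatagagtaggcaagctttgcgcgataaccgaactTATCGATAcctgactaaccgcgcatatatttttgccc
muc: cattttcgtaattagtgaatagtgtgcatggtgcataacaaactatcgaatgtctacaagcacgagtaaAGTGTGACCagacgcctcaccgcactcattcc
Nse1: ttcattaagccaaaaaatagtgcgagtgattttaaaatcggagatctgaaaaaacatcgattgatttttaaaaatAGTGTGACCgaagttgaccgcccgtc
vvl: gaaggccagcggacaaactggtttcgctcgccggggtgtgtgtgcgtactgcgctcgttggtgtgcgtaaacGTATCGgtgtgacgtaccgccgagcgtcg
Rab3-GAP: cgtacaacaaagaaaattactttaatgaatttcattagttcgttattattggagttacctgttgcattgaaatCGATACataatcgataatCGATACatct
Ube4A: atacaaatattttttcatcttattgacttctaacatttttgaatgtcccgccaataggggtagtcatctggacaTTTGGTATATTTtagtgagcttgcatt
loco: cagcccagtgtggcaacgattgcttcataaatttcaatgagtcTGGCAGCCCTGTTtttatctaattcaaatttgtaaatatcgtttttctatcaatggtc
Dr: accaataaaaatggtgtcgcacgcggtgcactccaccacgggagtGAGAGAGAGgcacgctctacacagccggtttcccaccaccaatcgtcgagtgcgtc
CG17593: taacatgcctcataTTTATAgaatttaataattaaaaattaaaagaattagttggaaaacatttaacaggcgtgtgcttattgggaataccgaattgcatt

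The 10 summits lay upstream of the nearest TSS, at signed distances from -51 bp at Dbp73D to -236 bp at muc. Because the printed windows overlap no annotated gene, this side follows from their choice. Over all members 59.3% of summits were upstream. Because the deposited scale differs between lists, each replicate's signal was divided by the median of its own list. The Dbp73D region had 2.01 times the list median in replicate 1 and 1.65 times in replicate 3, and the mh region had 1.44 and 2.36 times. The muc region had 1.22 times the list median in replicate 1 and, in replicate 3, 3.21 times. The vvl region (1.89 and 2.40 times) and the Rab3-GAP region (1.84 and 2.15 times) were above the median of both lists. All 10 of these regions were above the list median in both replicates, and they were chosen by rule from the upper end of the members.

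The members formed the stretch of the pooled list just below the threshold and a long tail under it. Their pooled rank ran from 6845 to 29855 with a median of 10927, and their pooled signal ran from 28.8 to 122 with a median of 81.7. Just inside the limit were the regions at ND-13A (a subunit of respiratory complex I, rank 6845) and CG3603 (rank 6847), and just outside it the thresholded peaks at CG13124 (rank 6843) and pbl (needed for cytokinesis, rank 6841). The pooled signal of the members and the 4004 thresholded promoter peaks met at 122 without overlap. The rule itself asks only that no base be shared with a thresholded peak. All thresholded promoter peaks ranked above all members in the pooled list. At the other limits of the rule, 29 members lay in the last 10 bp before the TSS limit and 44 otherwise equal regions in the first 10 bp beyond it. The farther replicate summit of 127 members was in the last 10 bp before the matching limit, and 106 promoter regions missed that limit by 10 bp or less.

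Within each replicate the members sat in the middle of the list. Their signal was 0.527 to 3.16 times the list median in replicate 1, with a median of 1.25, and 0.511 to 3.72 times in replicate 3, with a median of 1.23. The weak replicated regions outside promoters, 6229 in number, had medians of 0.995 and 1.01 times, and thresholded promoter peaks 3.05 and 3.65 times. The ratio of replicate 3 to replicate 1 over the members had a median of 0.997 and ran from 0.217 to 5.43, and 81.7% of members (95% Wilson interval 80.0 to 83.3) were within 2-fold. Neither replicate was the higher one as a whole, since replicate 3 was higher at 1100 of 2212 members. The summits of the 2 replicates lay a median of 32 bp apart.

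**Figure D1:**
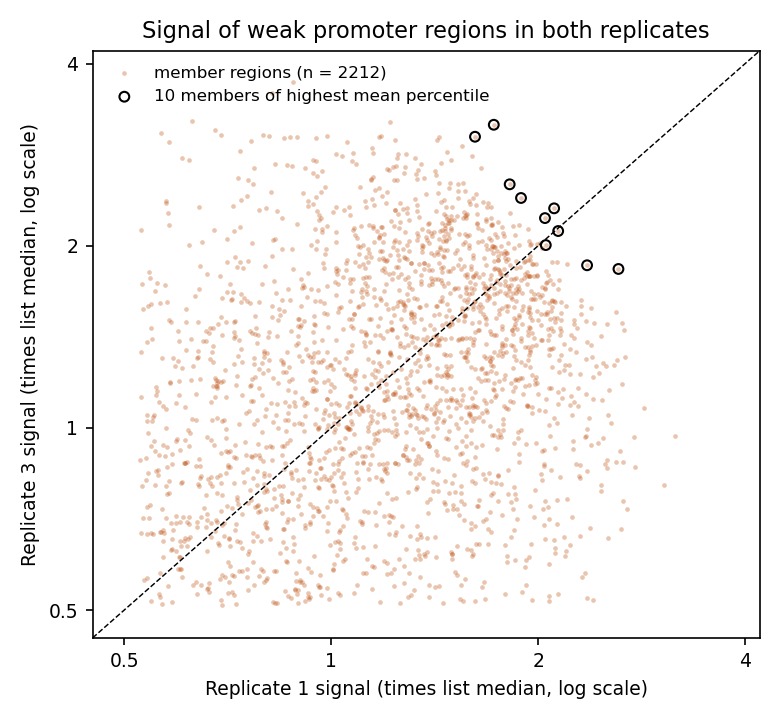
Signal of each weak replicated promoter region in replicate 1 (x axis) and replicate 3 (y axis), as multiples of each list's median on log scales, with the diagonal dashed. The 2212 points spread on both sides of the diagonal, and the 10 members of highest mean percentile (open circles) lie in the upper right, each at 1.62 times the median or more in both replicates.

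Few members were strong in both replicates. In replicate 1, 234 members (10.6%) ranked among its own strongest 6844 regions, against 5.04% of the weak replicated regions outside promoters. In replicate 3 this held for 222 members (10.04%, against 4.85%). Only 3 members (0.136%, against 0.0321%), at BRWD3, Roc1a and Sod1, ranked so high in both, whereas 77.1% of the 3765 thresholded promoter peaks with a summit in both replicates did. The rule used these signals, so nothing is read from the shares. The pooled -log10 q-value of members ran from 0.247 to 4.23, with a median of 2.71. At 535 members (24.2%) it stood at the list's maximum of 4.23, so that value does not order them.

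The 10 members of highest mean percentile lay at genes of varied function. The region of Arpc2 (a subunit of the actin-nucleating Arp2/3 complex) had 1.72 times the list median in replicate 1 and 3.17 times in replicate 3. The region of BRWD3 (a bromodomain and WD-repeat protein) had 2.11 and 2.31 times (mean 2.21 ± 0.139, SD, n = 2). That of bol (an RNA-binding protein of male meiosis) had 2.62 and 1.83 times. These 3 genes show the 2 patterns found among the strongest members, near-equal signal in both replicates or a clear excess in 1 of them. The region of Roc1a (the RING subunit of cullin ubiquitin ligases) had 2.05 and 2.22 times, that of Sod1 (copper-zinc superoxide dismutase) 2.14 and 2.12 times, and that of Den1 (a protease that removes Nedd8) 1.62 and 3.03 times. The region of CG11537 had 1.82 and 2.53 times, and that of RpS3 (a protein of the small ribosomal subunit) 2.36 and 1.86 times. The region of pum (Pumilio, a translational repressor) had 2.05 and 2.01 times. At the other end, the regions of Tsp42Ei (a tetraspanin; 0.547 and 0.518 times), CG5597 (0.567 and 0.512 times) and CG15126 (0.563 and 0.526 times) were close to the lowest value of both lists.

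The summits of members lay on the downstream side of the TSS more often than those of thresholded promoter peaks, and their median position was closer to it. The side of the TSS was not used by the rule. Of the members, 1311 (59.3%, 57.2 to 61.3) had the summit upstream, against 76.2% (74.9 to 77.5) of thresholded promoter peaks, a difference of -16.9 percentage points (95% Newcombe interval -19.4 to -14.5). The median position was -20 bp (95% interval -25 to -16) for members and -49 bp (-51 to -45) for thresholded promoter peaks. The shares of summits within 50 bp of the TSS were 41.9% and 41.4%, a difference of 0.429 points (-2.12 to 2.99) that includes 0. Among weak promoter regions found in 1 or no replicate, 2247 in number, 53.8% of summits were upstream and 31.1% were within 50 bp. Their median position was -13 bp (-20 to -7), so a median near the TSS was not particular to members.

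The same was measured with each replicate's own summits. The summits in replicate 1's own list were upstream at 57.0% of members and 72.4% of thresholded promoter peaks, and those of replicate 3 at 59.4% and 76.9%. Among promoter regions found in 1 replicate only, the share upstream was 49.8% for replicate 1 and 62.7% for replicate 3, so their order relative to members differed between the replicates. Where no other TSS on the opposite strand was near, 58.3% of members and 75.4% of thresholded promoter peaks had the summit upstream, a difference of -17.1 points (-19.7 to -14.4).

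**Figure D2:**
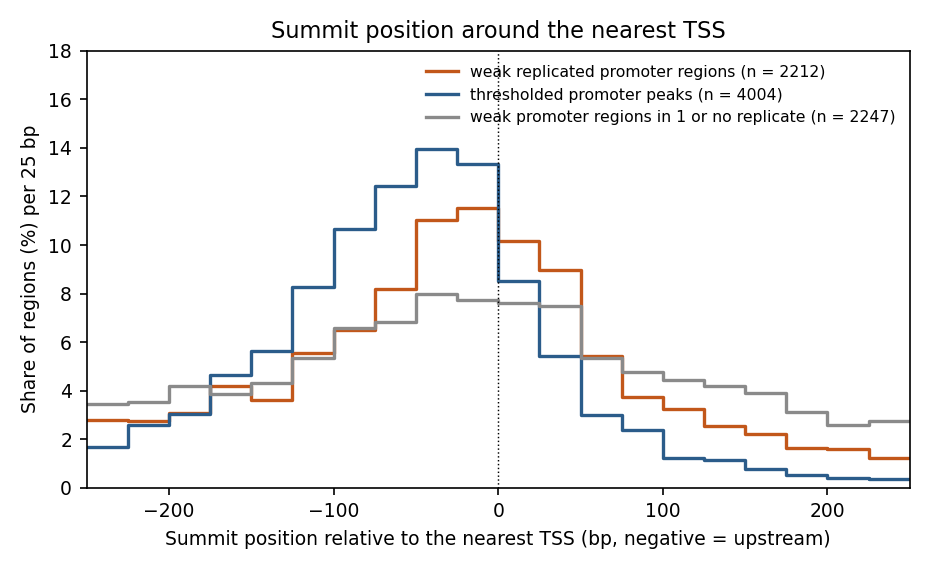
Share of regions (y axis, percent per 25 bp) by summit position relative to the nearest TSS (x axis, bp, upstream negative) for members, thresholded promoter peaks and weak promoter regions in 1 or no replicate. Thresholded peaks pile up upstream of the TSS with a median of -49 bp, and members have a median of -20 bp. The unreplicated regions are flatter, with a median of -13 bp.

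Members were seldom at divergent promoters, where TSSs on both strands lie within 250 bp of the summit. This was so for 194 members (8.77%, 7.66 to 10.02) and for 25.2% (23.9 to 26.6) of thresholded promoter peaks, a difference of -16.5 points (-18.2 to -14.6). In the unreplicated promoter regions the share was 6.01%. The value depends on the distance allowed: with a TSS limit of 100 bp it was 4.06% of members, and with 500 bp it was 15.6%.

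Closeness to strong peaks was compared with that of other weak regions, and no excess was detectable. A thresholded interval lay within 1000 bp of 511 members (23.1%, 21.4 to 24.9) and of 23.4% of the weak replicated regions outside promoters, a difference of -0.305 points (-2.32 to 1.77). The median gap to the nearest thresholded interval was 3129.5 bp, and 63.9% of members had one within 5000 bp. At 349 members (15.8%) a gene of the region also had a thresholded summit at one of its TSSs, and 1863 members (84.2%) lay at genes that had none. Over all protein-coding genes 32.8% had a thresholded summit at a TSS. The rule makes both kinds at the same TSS rare, so nothing is read from this share.

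Letters of housekeeping promoter motifs were more frequent at members than at weak regions outside promoters, and less frequent than at thresholded promoter peaks. Motifs were searched on both strands from 100 bp before to 100 bp after each summit. The DRE core was in 162 members (7.32%, 6.31 to 8.48), in 11.8% of thresholded promoter peaks (difference -4.46 points, -5.91 to -2.96) and in 0.626% of weak regions outside promoters (difference 6.70 points, 5.66 to 7.87). The M1BP core GGTCACACT was in 4.93% of members, 8.07% of thresholded promoter peaks (difference -3.14 points, -4.35 to -1.87) and 0.225% outside promoters. The BEAF-32 consensus, CGATAG or CGATAC, was in 21.0% of members, 30.9% of thresholded promoter peaks (difference -9.85 points, -12.0 to -7.60) and 8.99% outside promoters. It overlaps the DRE letters in part, and 130 of the 162 windows with a DRE core also held it.

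Ohler motif 7 followed the same order, in 6.10% of members, 12.0% of thresholded promoter peaks and 1.78% outside promoters. Ohler motif 6 was in 2.08% of members and 2.52% of thresholded promoter peaks, a difference of -0.443 points (-1.19 to 0.371) that includes 0. At least 1 of these 5 motifs was in 685 members (31.0%, 29.1 to 32.9), in 45.5% of thresholded promoter peaks and in 19.8% of unreplicated promoter regions. The same share was 29.3% over windows of equal length at all 19253 distinct TSSs of protein-coding genes, a difference of 1.65 points (-0.347 to 3.71). For each of the 5 motifs the difference between members and all TSS windows had an interval that included 0: DRE letters were in 6.79% of all TSS windows, M1BP letters in 4.66%, BEAF-32 letters in 19.98%, Ohler motif 6 in 1.54% and Ohler motif 7 in 7.07%. At the 7444 TSS windows with no pooled summit within 500 bp, DRE letters were in 1.41%, M1BP letters in 0.524% and BEAF-32 letters in 10.3%. Where they occurred, DRE letters lay a median of 31.5 bp from the summit of a member and 37.5 bp from that of a thresholded promoter peak.

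Letters of the other promoter class were distributed otherwise. Inr letters (TCAGT) were in 917 members (41.5%, 39.4 to 43.5), 34.6% of thresholded promoter peaks (difference 6.89 points, 4.37 to 9.42) and 43.1% of all TSS windows. TATA letters (TATAAA) were in 515 members (23.3%), 27.2% of thresholded promoter peaks (difference -3.97 points, -6.18 to -1.71) and 29.6% of all TSS windows (difference -6.36 points, -8.19 to -4.44). Members were thus richer in initiator letters and poorer in TATA letters than thresholded promoter peaks. Unreplicated promoter regions were close to members, with TATA letters in 23.3% (difference 0.00662 points, -2.47 to 2.49). Inr letters were in 38.8% of them (difference 2.69 points, -0.184 to 5.56), so neither trait set members apart from other weak promoter regions. Weak replicated regions outside promoters held Inr letters in 32.4% and TATA letters in 26.1%, the latter more often than members. Windows were centred on summits, whose median position was -20 bp for members and -49 bp for thresholded promoter peaks. The part of this in the Inr and TATA differences was not tested. GAGA letters (GAGAGAG) were in 5.97% of members, 4.75% of thresholded promoter peaks (difference 1.22 points, 0.0700 to 2.45) and 5.79% of all TSS windows. GATA letters (TGATAA or AGATAA) were in 27.9% of members, 24.0% of thresholded promoter peaks (difference 3.89 points, 1.62 to 6.198) and 24.6% of all TSS windows. Outside promoters, weak replicated regions held GAGA letters in 4.59% and GATA letters in 31.9%, the latter more often than members. In unreplicated promoter regions GAGA letters were in 8.01%, more often than in members, and GATA letters in 26.3%.

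Differences from thresholded promoter peaks included 0 for the E-box, Zelda, CTCF, Sox and TCF letters and the A tract. Base composition also differed. The median G+C of the member windows was 42.3% (41.8 to 42.8), against 39.8% (39.3 to 39.8) for thresholded promoter peaks, 40.8% for weak regions outside promoters and 40.8% for all TSS windows. It was 43.8% for unreplicated promoter regions, so members lay between them and the thresholded peaks.

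**Figure D3:**
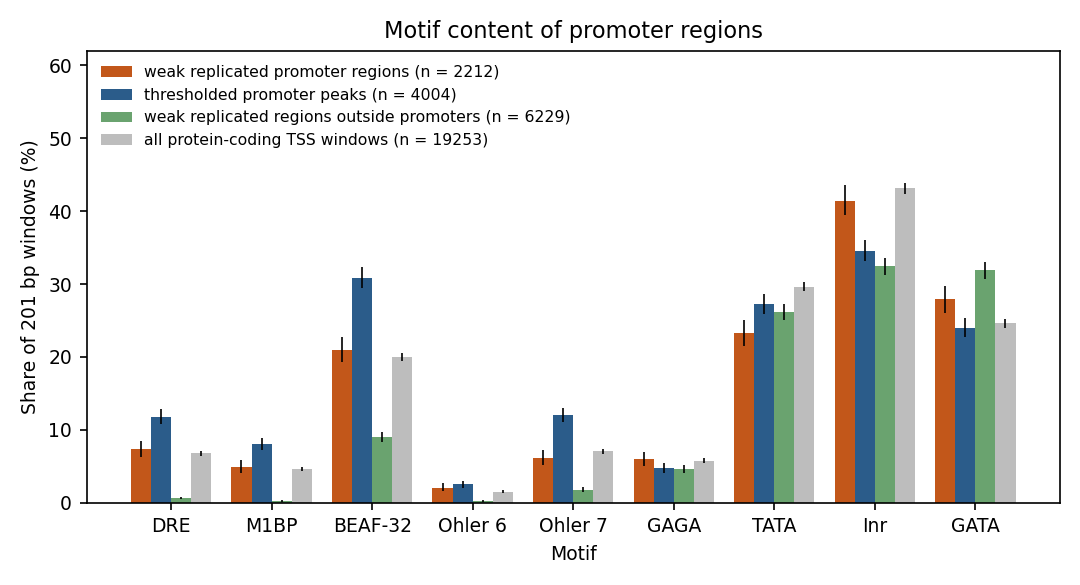
Share of summit windows (y axis, percent, 100 bp on either side) that hold the letters of each motif (x axis) in members, thresholded promoter peaks, weak replicated regions outside promoters and windows at all TSSs of protein-coding genes, with 95% Wilson intervals as bars. For DRE, M1BP, BEAF-32 and Ohler 7 the members stand below the thresholded peaks and near all TSS windows, as for BEAF-32 at 21.0%, 30.9% and 19.98%.

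Most of these features changed along the pooled rank without a break at the threshold. Promoter regions with a summit in both replicates were cut into 4 groups above the threshold (3765 regions) and 4 below it (the 2212 members). The share with the summit upstream was 84.8% (82.5 to 86.8) in ranks 1 to 1711, 66.5% (63.1 to 69.8) in ranks 5134 to 6844, 63.0% (59.2 to 66.7) in ranks 6845 to 9000 and 58.1% (53.2 to 62.9) beyond rank 16000. The share at divergent promoters was 36.9%, 15.9%, 13.9% and 6.52% in the same groups. On both sides of the threshold the intervals of these neighbouring groups overlapped. DRE letters were in 11.5% of the first group, 10.2% just above the threshold, 10.6% just below it and 1.75% of the last, and BEAF-32 letters in 29.3%, 29.4%, 27.0% and 14.0%, and in the second group these shares were 13.2% and 34.01%. Inr letters went the other way, at 32.2%, 38.0%, 42.3% and 42.9%. M1BP letters were also more frequent in the second group than in the first, with 5.40% in the first group, 10.1% in the second, 7.02% just below the threshold and 1.75% in the last. Median G+C was 37.8% in the first group, 41.3% just below the threshold and 45.3% in the last.

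**Figure D4:**
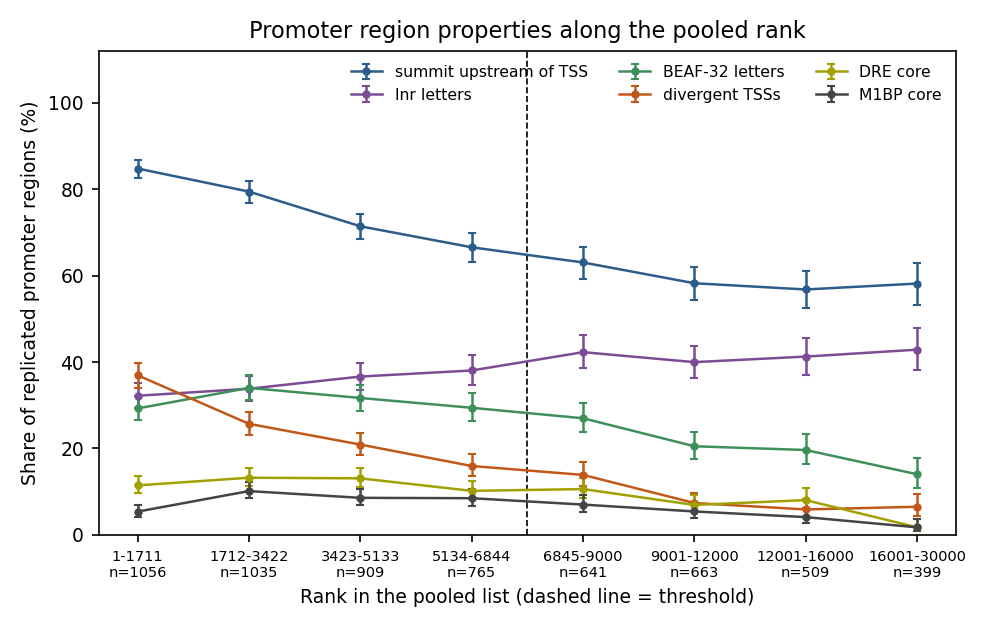
Share of replicated promoter regions (y axis, percent, with 95% Wilson intervals) that have each property, in 8 groups by pooled rank (x axis), with the threshold dashed. Upstream summits go from 84.8% to 58.1% and divergent TSSs from 36.9% to 6.52%, and no property steps at the dashed line by more than its intervals.

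The nearest TSS of a member was that of a protein-coding gene in 2020 cases (91.3%), of a non-coding RNA gene in 134 (6.06%), of a tRNA gene in 49 (2.22%), of a snoRNA gene in 6 and of a snRNA gene in 3. Thresholded promoter peaks were nearer to protein-coding genes, with 96.0%, a difference of -4.63 points (-6.00 to -3.35), and less often nearest to tRNA genes, with 0.624%. At tRNA genes, 59 of 290 (20.3%) had a weak replicated region within 250 bp and 39 a thresholded summit, while at snoRNA genes 10 of 269 (3.72%) had a weak region. The strongest tRNA region, named after its values were seen, was at tRNA:Pro-AGG-1-2, with 1.95 and 2.002 times the list median and only unique words around it. Copies of tRNA genes are nearly identical: in 25 of the 49 windows fewer than 90% of the 32-base words were unique in the genome, against 14 of 2020 at protein-coding genes. The part of shared reads in the tRNA values was not tested.

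Genes were counted by the kind of region at their TSSs. Of 13945 protein-coding genes, 4574 (32.8%) had a thresholded summit within 250 bp of a TSS and 2028 (14.5%) a weak replicated region, 303 of them both. The rule makes both rare, since a member shares no base with a strong peak, and none of the 303 genes had a single TSS. Among the 9371 genes without a thresholded summit, 1725 (18.4%, 17.6 to 19.2) had a weak region. These 1725 genes had a median length of 2765 bp, against 2760 bp for the 4271 genes with a thresholded summit only, 10118 bp for the 303 with both and 1692 bp for the 7646 genes with neither. These lengths are a description without a test. A single TSS was annotated for 65.0% of the genes with a weak region only, 65.5% of those with a thresholded summit only and 82.7% of those with neither. The share known only by a CG number was 36.5% (34.3 to 38.8), between 29.99% (28.6 to 31.4) for genes with a thresholded summit only and 53.8% (52.7 to 55.0) for those with neither.

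Most genes had 1 member region (1848), 159 had 2, 17 had 3, and 4 had 4 or more, namely blot, Desat1, Tlk and Svil. Svil (supervillin, an actin-binding protein), with 16 TSSs, had 5 weak regions, which had 1.08 and 2.85, 1.17 and 1.17, 1.48 and 2.22, 0.834 and 2.29, and 1.08 and 0.534 times the list median in replicates 1 and 3. Desat1 (a fatty acid desaturase), with 5 TSSs, had 4, and Tlk (Tousled-like kinase), with 8 TSSs, had 4. Svil, Desat1 and Tlk also had a thresholded summit at a TSS. The fourth gene, blot, with 5 TSSs, had 4 weak regions and no thresholded summit, with 0.728 to 1.96 times the list median in replicate 1 and 0.893 to 1.22 times in replicate 3. The weak regions of Tlk had 1.27 to 1.89 times the list median in replicate 1 and 0.939 to 1.93 times in replicate 3.

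By chromosome arm, the members numbered 393 on 2L, 488 on 2R, 402 on 3L, 475 on 3R, 17 on chromosome 4 and 437 on X. On X they made up 42.8% (39.8 to 45.8) of all weak and thresholded promoter regions, against 35.6% (34.4 to 36.8) over all arms and 32.2% (29.9 to 34.7) on 3R. The X was thus the large arm with the highest share of its promoter regions below the threshold.

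Gene lists are read against the 18.4% of protein-coding genes without a thresholded summit that had a weak region, and no test of the lists was made. Most genes for the translation machinery had a thresholded summit, and the weak regions are counted among the rest. Of 86 cytoplasmic ribosomal protein genes, 70 had a thresholded summit and 9 of the other 16 a weak region, led by RpS3, RpL40 and RpS5b. RpL40 had 1.84 and 1.98 times the list median and RpS5b 1.75 and 1.89 times. Of 73 mitochondrial ribosomal protein genes, 48 had a thresholded summit and 9 of the other 25 a weak region, led by mRpS9 (1.68 and 1.86 times), mRpS28 (1.30 and 2.03 times) and mRpS34 (1.73 and 1.43 times). Of the weak summits, 4 of 9 in the cytoplasmic and 2 of 9 in the mitochondrial list were upstream of the TSS, against 59.3% over all members.

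Aminoacyl-tRNA synthetase genes, which charge tRNAs, had 22 of 35 with a thresholded summit and 6 of the other 13 with a weak region: ArgRS, AsnRS-m, AspRS, CysRS-m, LeuRS and TyrRS. Their 6 regions were all upstream of the nearest TSS and all at divergent promoters, where the shares over all members were 59.3% and 8.77%. LeuRS, whose region is printed above beside CG17593, had 1.58 and 2.26 times the list median, ArgRS 2.07 and 1.61 times and CysRS-m 1.96 and 1.51 times. Translation factors had 34 of 54 with a thresholded summit and 4 of the other 20 with a weak region, namely eEF1alpha2, eEF1delta, eIF2Bbeta and eIF4G1, and the last had 1.49 and 2.21 times.

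Genes of the nuclear pore and of RNA metabolism were counted in the same way. Of 23 nuclear pore genes, 14 had a thresholded summit and 6 of the other 9 a weak region: mbo, Nup188, Nup35, Nup43, Nup58 and Nup93-2. Nup43 had 1.34 and 2.23 times the list median, Nup58 1.38 and 2.12 times and Nup188 1.29 and 2.31 times. Of 35 spliceosome genes, 24 had a thresholded summit and 7 of the other 11 a weak region, led by SmB (2.08 and 1.46 times), LSm3 (1.56 and 1.53 times) and LSm7 (0.940 and 2.77 times). At LSm7 replicate 1 was below its list median and replicate 3 well above it, so the mean hides a wide spread. The exosome and rRNA processing list had 7 of 13 with a thresholded summit and 4 of the other 6 with a weak region, Mtr4, Rrp4, Rrp40 and Rrp45. Rrp40, a cap subunit of the exosome, had 1.63 and 2.18 times.

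Transcription machinery had weak regions at 4 of 10 Mediator genes without a thresholded summit (MED15, MED18, MED24 and MED8), 3 of 6 TFIID and general factor genes (Taf6, Taf8 and TfIIFbeta), 4 of 9 RNA polymerase genes (Polr1A, Polr2K, Polr3I and Polr3K) and 3 of 5 Integrator genes (IntS1, IntS2 and IntS6). Polr1A, the largest subunit of RNA polymerase I, had 1.602 and 1.67 times the list median. MED8 had 1.49 and 1.67 times and Taf8 1.42 and 1.76 times. IntS6 had 2.60 and 1.30 times, so its signal was carried more by replicate 1.

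For replication and the cell cycle, the counts were 4 of 11 DNA replication genes and 4 of 12 cyclin and mitotic kinase genes. PCNA (the replication clamp) had 1.29 and 1.66 times the list median, Mcm10 1.12 and 1.84 times and Orc2 (of the origin recognition complex) 1.13 and 1.71 times. Of the 4 weak regions of replication genes, 3 held DRE letters, where the share over all members was 7.32%. The checkpoint kinase genes lok and grp had 1.53 and 1.51 times and 1.203 and 1.88 times, Bub1 1.598 and 0.993 times, and stg (the Cdc25 phosphatase String) was the fourth.

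Mitochondrial energy and import genes come next. Of 86 respiratory chain genes, 44 had a thresholded summit, 11 of the other 42 a weak region and 31 neither. Complex I genes made up 9 of the 11, among them ND-13A (2.65 and 1.49 times the list median) and ND-13B (1.93 and 1.55 times). The share of complex I genes in the whole list was not counted, so nothing is read from this number. ND-15 (1.56 and 2.09 times) had a weak region beside a thresholded summit. Of the 11 genes' 13 regions, 11 were upstream of the TSS and 9 held at least 1 of the 5 housekeeping motifs. The shares over all members were 59.3% and 31.0%. In the mitochondrial import list, 3 of 15 genes had a thresholded summit and 5 of the other 12 a weak region: Tim17a2, Tim17b, Tim8, Tim9b and Tom20. Tom20, an import receptor, had 0.809 and 1.41 times, and Tim8 had 1.83 and 0.755 times, so neither was above the median in both replicates.

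Smaller counts came from degradation and membrane traffic. Rpn7 and Prosalpha4 were the weak genes among 7 proteasome genes without a thresholded summit, and Rpn7 had 0.817 and 2.46 times the list median. Vha14-1 and Vha100-5 were those among 17 vacuolar ATPase genes, with 1.46 and 2.38 times at Vha14-1. Of 13 Rab GTPase genes there were 4, Rab11, Rab4, Rab40 and Rab9, and Rab11, which acts in recycling endosomes, had 1.15 and 2.91 times. No weak region was found at the 6 autophagy genes or the 2 peroxisome genes without a thresholded summit. Chaperone genes had weak regions at 7 of 22, of which CCT1, CCT2, CCT3 and CCT8 are subunits of the cytosolic chaperonin. CCT2 had 1.57 and 2.24 times and CCT8 1.81 and 1.59 times, while Hsp23 had 2.11 and 1.04 times.

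Among chromatin genes the counts differed between lists. Of 19 Polycomb group genes, 13 had a thresholded summit and Pcl, Sce, escl and ph-p of the other 6 a weak region. Sce (a ubiquitin ligase for histone H2A) had 1.02 and 1.84 times the list median, escl 1.85 and 0.945 times and ph-p 1.21 and 0.993 times. In the Trithorax group dwg (Zw5, an insulator protein, also on the insulator list) was the 1 weak gene of 4, with 1.36 and 0.983 times. The HMG-box list had 5 of 18 genes with a thresholded summit and 4 of the other 13 with a weak region: pan (the TCF of Wingless signalling), D (Dichaete, a Sox factor), TFAM (of mitochondrial DNA) and HmgD. The pan region had 2.52 and 1.49 times the list median and the D region 1.39 and 2.18 times. HmgD, the closest relative of HmgZ and named after its values were seen, had 0.781 and 1.38 times at rank 21205, far down the pooled list.

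Among developmental genes the Wingless and Hedgehog list had the most genes with a weak region and no thresholded summit. In the Wingless and Hedgehog list, 17 of 29 genes had a thresholded summit and 7 of the other 12 a weak region. Wnt6 (a ligand) had 1.48 and 2.86 times the list median, por (Porcupine, which acylates Wnt ligands) 1.76 and 1.80 times and dsh (the signal transducer Dishevelled) 1.46 and 2.04 times. The other 4 were Wnt5, the receptor gene fz, and fu and Su(fu) of the Hedgehog pathway. Thus ligand, receptor and transducer genes were all among them. Notch pathway genes had 4 of 16, with 1.77 and 1.46 times at mam (the coactivator Mastermind), 1.80 and 1.40 times at dx (Deltex) and 1.96 and 1.51 times at O-fut1, which shares its region with CysRS-m. Ecdysone response genes had 4 of 15, with 1.78 and 1.94 times at Eip63E and 1.78 and 1.83 times at Hr4. Insulin and TOR genes had 5 of 17, with 1.79 and 1.67 times at Pi3K92E (the catalytic PI3 kinase) and 1.33 and 2.39 times at Tsc1. Of 20 Hox and segmentation genes without a thresholded summit, Scr (1.57 and 1.53 times) and slp2 (0.718 and 0.736 times) had a weak region.

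Muscle genes mostly lacked a thresholded summit, with 4 of 29, and 8 of the other 25 had a weak region: Act57B, bt, Mhc, Mlc1, Msp300, Tm2, up and wupA. Their signal was low, with medians of 0.941 and 0.706 times the list median over 10 regions and ranks from 12004 to 20556. Mhc (muscle myosin heavy chain), named after its values were seen, had 0.654 and 0.737 times, up (troponin T) 0.896 and 1.48 times and Msp300 (a nesprin) 0.986 and 2.16 times. Of the 10 regions 3 held BEAF-32 letters and none DRE or M1BP letters, where the shares over all members were 21.0%, 7.32% and 4.93%. Act57B, also on the actin and tubulin list, had 0.885 and 0.539 times.

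In both lists of detoxification genes, more genes had a weak region than a thresholded summit. The same order held in the mitochondrial import, muscle, cuticle, chemoreceptor, digestive protease and antimicrobial peptide lists. Among genes without a thresholded summit, 24.0% (15.8 to 34.8) of cytochrome P450 genes had a weak region, an interval that includes the 18.4% over all protein-coding genes. For glutathione S-transferase genes the share was 40.7% (24.5 to 59.3). Of 83 cytochrome P450 genes, 8 had a thresholded summit and 18 of the other 75 a weak region. Cyp12a4 had 1.82 and 1.69 times the list median, Cyp305a1 2.07 and 1.32 times and Cyp4e2 1.10 and 2.50 times. Of 35 glutathione S-transferase genes, 8 had a thresholded summit and 11 of the other 27 a weak region, with 1.58 and 1.80 times at GstO2, 1.40 and 1.73 times at GstZ1 and 1.94 and 1.18 times at GstT3. The 19 P450 regions and 12 transferase regions held no window with fewer than 90% unique words. Of the transferase regions 6 had TATA letters and 8 Inr letters, and of the P450 regions 9 and 9, where the shares over all members were 23.3% and 41.5%. No test of these counts was made.

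Lists of genes used in specialised cells had few regions of either kind. Of 121 cuticle protein genes only TwdlG had weak regions, 2 in number, and none had a thresholded summit. The TwdlG regions had 0.664 to 0.679 times the list median in replicate 1 and 0.536 to 1.21 times in replicate 3. Of 231 chemoreceptor and odorant-binding protein genes 1 had a thresholded summit and Gr97a, Ir25a, Ir76a and Obp99c a weak region, with 1.32 and 1.36 times at Gr97a. Drsl5 (1.37 and 0.614 times) was the 1 weak gene of 32 antimicrobial peptide genes. Of 45 synapse and ion channel genes without a thresholded summit 3 had a weak region, Ca-beta (1.77 and 1.95 times), slo (1.42 and 1.17 times) and Shab, and of 33 digestive protease and amylase genes there were 3, Jon25Bii, Jon65Aiv and thetaTry.

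**Figure D5:**
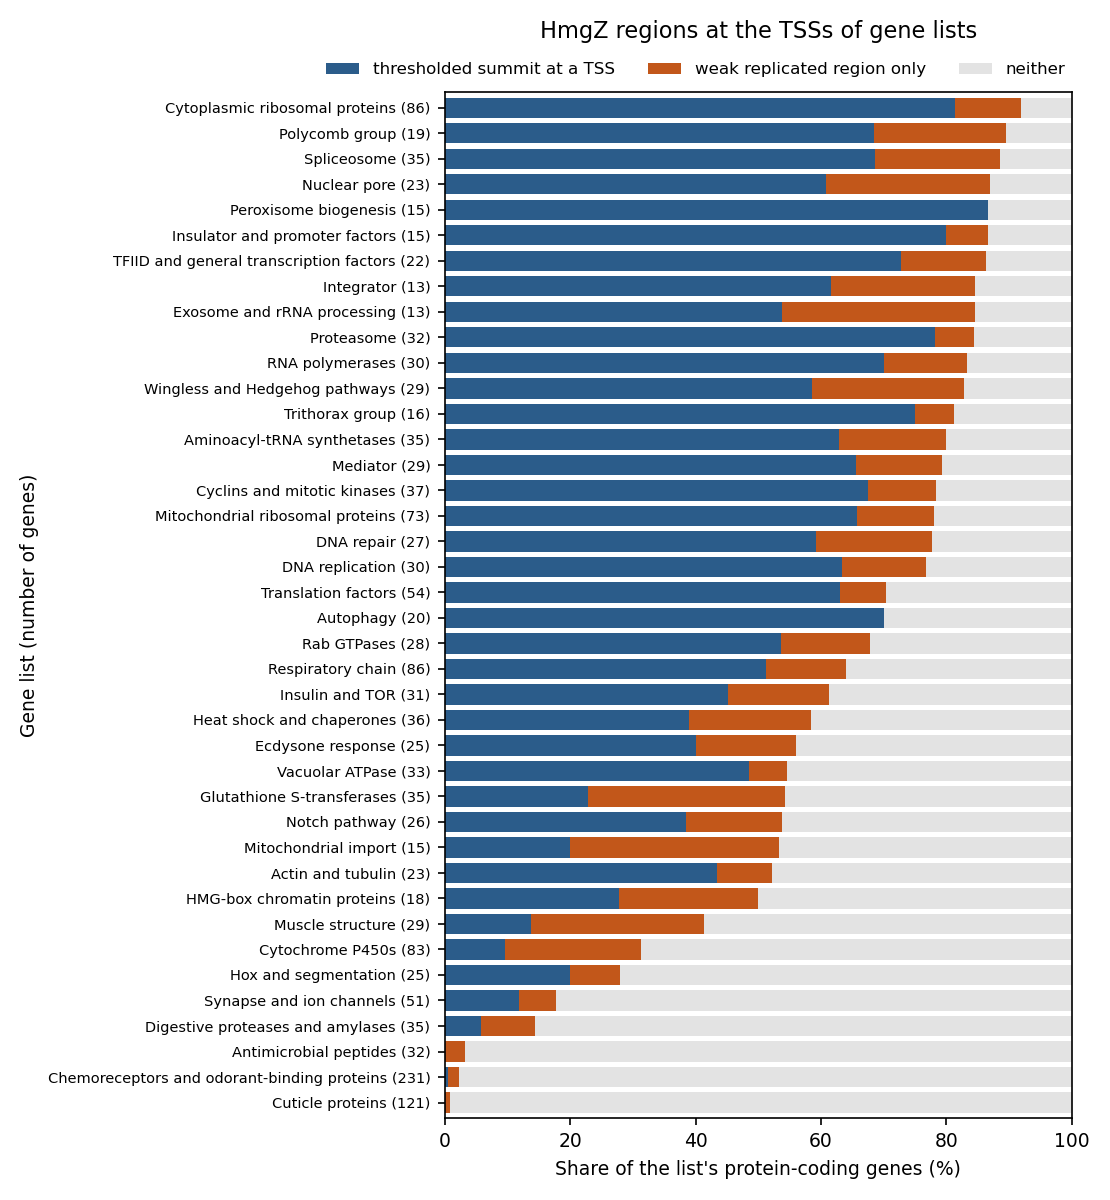
Share of each gene list (y axis, number of protein-coding genes in brackets) with a thresholded summit at a TSS, with a weak replicated region only, or with neither (x axis, percent of genes). Cytoplasmic ribosomal protein genes have 70 thresholded and 9 weak of 86, muscle genes 4 and 8 of 29, glutathione S-transferase genes 8 and 11 of 35, and cuticle protein genes 0 and 1 of 121.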

How the data were processed

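Per the labels, HmgZ-eGFP ChIP-seq was made from 2 replicates of 1 group, and the labels and accompanying file descriptions give dm6 and 1 shared control alignment. The aligner is not given in the sources used here, nor is the peak caller. The deposited signal value of each region (of unstated scale) and the deposited −log10 q-value are the authors', and were used only to describe and rank regions. Replicate signals were divided by the median of their list of 30000 regions or turned into percentiles. TSSs came from Ensembl 115, without transposable elements and pseudogenes. Region, motif and gene shares have 95% Wilson intervals, differences 95% Newcombe intervals and medians binomial intervals. These cover counting error only, neighbouring regions are not independent, and no p-value was computed. Depth is unknown.

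TSS windows for motifs were centred 50 bp upstream. Named genes followed a rule: the 10 highest and 3 lowest mean percentiles, those next to the threshold, up to 3 per list and the 3 genes with most regions, with ties. The members, the 40 gene lists, the 15 motifs and the rule were chosen with earlier results of these data known. Some list patterns were trimmed from gene names alone (cyclophilins from P450s, Rrp1, Timp, GluRS-m), and Cpr, a P450 reductase, was taken off the cuticle list after values were seen. Some named genes are not reported here. Functions were tested on simulated data. Software was Python 3.11.15 with numpy 2.4.6, pandas 2.3.3, scipy 1.17.1 and matplotlib 3.10.9.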

Additional observations from a re-analysis of the deposited data

How the results depend on the processing

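Depth is unknown and there is 1 group of 2 replicates, so no test across samples was made, and no paired analysis was possible because there is only 1 group. Each of 10 results was recomputed under up to 10 other settings, 93 values in all. The median position, the only result that can change sign, stayed negative. Differences from thresholded peaks were not recomputed. Of the 93 values, 57 stayed within the interval of the reported value (for the number of members, within 1.5 times), and 36 moved, the cause of which was not tested beyond the setting itself. With a summit match asked of 1 replicate only, the members numbered 3009 to 3408, and 55.7% to 60.1% were upstream. The pooled and thresholded lists, made from both replicates, were unchanged. The median position was -23 to -14 bp, 7.66% to 8.31% were divergent, and median G+C was 42.3% to 43.3%. DRE letters were in 5.96% to 6.55%, M1BP letters in 3.903% to 4.42% and BEAF-32 letters in 18.02% to 19.97%. Of genes without a thresholded summit, 24.2% to 25.5% had a weak region. That gene share was 12.3% with summits matched within 50 bp, 22.2% within 200 bp, 12.9% with a TSS limit of 100 bp, 22.6% with 500 bp, 15.2% for rank 15000 or better and 15.3% for regions at least 1000 bp from thresholded intervals. With a TSS limit of 100 bp there were 1452 members, 56.7% upstream, with a median of -9.5 bp, 4.06% divergent, DRE letters in 10.5%, M1BP in 6.75% and BEAF-32 in 25.2%. With 500 bp the median was -28 bp, 15.6% were divergent, and the letters were in 5.93%, 3.92% and 18.5%. For rank 15000 or better DRE letters were in 8.79% and BEAF-32 letters in 23.1%. At least 1000 bp from thresholded intervals, 62.5% were upstream with a median of -26.5 bp. In windows of 50 bp to each side the letters were in 4.93%, 2.98% and 13.2%, and median G+C was 43.6%.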

Other observations

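All 2080 words of 6 bases, each counted with its reverse complement, were compared between the member windows and the windows of thresholded promoter peaks, as a description without a test. The words most depleted in members were CGATAG (14.9% of member windows against 25.2%), which is part of the BEAF-32 letters, ATTTTA (28.5% against 38.8%) and TATCGA (20.6% against 30.7%), which is part of the DRE letters. ACACTG was in 14.6% against 22.8%. The words most enriched in members were AACTGA, the reverse complement of TCAGTT and so partly the Inr letters (19.8% against 13.8%), AGCAGC (17.2% against 12.7%), AACGAA (19.5% against 15.2%), CCGAAA (15.6% against 11.3%) and CCGATC (8.09% against 3.95%). Against all TSS windows the lowest words were TATAAA (23.3% against 29.6%) and ATAAAA (31.6% against 37.0%), and the highest was CTTATC, which shares 5 of its 6 bases with the GATA letters (16.4% against 13.6%).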
